A study of Mus musculus with 15 samples.

Results

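The genes described here are 9 enzyme genes of glycolysis and the glucose transporter gene Slc2a1, followed across 15 RNA-seq libraries of cultured mouse B cells. They were taken by symbol: the rows of the gene table whose identifiers map to Slc2a1, Hk2, Pfkp, Pfkl, Aldoa, Gapdh, Pgk1, Eno1, Pkm and Ldha, 10 of 51912 rows. All 10 have a row, and all 10 are among the 15692 genes that passed the filter on low counts. Wild-type mouse B cells were cultured on feeders in the presence of IL-4 (100 ng/ml) until day 6, when a bulk, unsorted sample (D6) was taken. The feeders were 40LB cells, a fibroblast-derived line that drives B cells towards a germinal centre-like state. The other cells were lifted from the feeders, left for 2 more days in medium with no stimulus, and sorted on day 8 by isotype and stage into IgE PC, IgG1 PC, IgE iGC and IgG1 iGC. PC are plasma cells, and iGC is the labels' name for the cells of each isotype that had not become plasma cells. Each of the 5 groups has 3 biological replicates. All groups share the genotype and the 6 days with IL-4 and feeders, so every group is a product of this culture.

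Glycolysis breaks glucose down to pyruvate in the cytosol and yields ATP and building blocks, and lactate dehydrogenase regenerates NAD+ by turning pyruvate into lactate. Activated B cells take up more glucose and raise glycolytic enzymes, partly through the transcription factors Myc and HIF-1, while plasma cells also spend glucose on the sugars that are attached to secreted antibody. Slc2a1 carries glucose into the cell, and the enzymes follow in this order: Hk2, Pfkp and Pfkl, Aldoa, Gapdh, Pgk1, Eno1, Pkm and Ldha.

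The promoters of 4 of the genes are shown here because these genes have, in each direction, the 2 largest differences between the plasma cells of the isotypes under TMM scaling: Pfkp and Pgk1 are higher in IgE PC, and Eno1 and Ldha are lower. HIF-1 binds the core ACGTG or GCGTG, and Myc binds CACGTG, in which ACGTG is read on both strands. Each sequence is 250 bases upstream of the most upstream RefSeq start of the gene (GRCm38.p6), 5′ to 3′ on the gene's strand, with each match to ACGTG or GCGTG on either strand in capitals.
Pfkp (chr13:6648772-6649021, minus strand): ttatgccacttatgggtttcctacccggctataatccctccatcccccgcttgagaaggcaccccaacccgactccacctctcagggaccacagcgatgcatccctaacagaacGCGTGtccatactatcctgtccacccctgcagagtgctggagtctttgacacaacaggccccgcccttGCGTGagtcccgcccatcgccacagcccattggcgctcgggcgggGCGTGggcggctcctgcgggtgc
Pgk1 (chrX:106186850-106187099, plus strand): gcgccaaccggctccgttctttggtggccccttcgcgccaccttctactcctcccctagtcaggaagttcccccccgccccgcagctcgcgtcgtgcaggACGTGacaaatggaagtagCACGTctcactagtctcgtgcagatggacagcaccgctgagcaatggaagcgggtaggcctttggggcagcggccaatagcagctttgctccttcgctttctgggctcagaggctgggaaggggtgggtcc
Eno1 (chr4:150236458-150236707, plus strand): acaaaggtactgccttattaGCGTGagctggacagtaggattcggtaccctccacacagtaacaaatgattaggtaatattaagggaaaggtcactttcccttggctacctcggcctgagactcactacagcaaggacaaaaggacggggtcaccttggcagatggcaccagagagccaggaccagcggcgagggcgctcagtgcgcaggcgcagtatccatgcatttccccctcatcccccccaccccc
Ldha (chr7:46845554-46845803, plus strand): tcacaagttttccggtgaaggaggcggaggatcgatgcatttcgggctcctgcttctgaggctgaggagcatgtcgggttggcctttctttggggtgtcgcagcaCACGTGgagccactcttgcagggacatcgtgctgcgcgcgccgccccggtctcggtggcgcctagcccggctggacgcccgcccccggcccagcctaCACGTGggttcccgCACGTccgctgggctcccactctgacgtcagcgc
The Pfkp sequence holds GCGTG 3 times, Pgk1 holds ACGTG 2 times, and Eno1 holds GCGTG 1 time. Ldha holds 3 matches, and 2 of them are CACGTG. RefSeq lists 3 start windows for Eno1 and 2 for Ldha, of which 1 each is shown. Of 27025 mouse promoters of this length, 16.5% hold ACGTG, 28.3% hold GCGTG, 38.6% hold either, and 6.04% hold CACGTG. Of the 10 genes, 8 hold ACGTG or GCGTG, the exceptions being Aldoa and Pkm, and Ldha alone holds CACGTG. A match is a description of the letters and not a binding site.

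Expected counts summed to between 17.7 M (IgE iGC replicate 3) and 54.1 M (IgG1 PC replicate 2) per library. Plasma cell markers (6 genes) summed to 9837 to 10924 TPM in IgE PC and 6330 to 7665 in IgG1 PC, against 606 to 679 in IgE iGC, 318 to 328 in IgG1 iGC and 343 to 366 at D6. B cell markers (6 genes) summed to 1931 to 2139 in IgE PC, 2746 to 3234 in IgG1 PC and 7151 to 7525 in both iGC groups, and 3752 to 4019 at D6. Cell cycle markers (8 genes) summed to 794 to 814 at D6, 1006 to 1072 in IgE iGC, 899 to 942 in IgG1 iGC, 450 to 476 in IgE PC and 646 to 897 in IgG1 PC. Fibroblast markers (9 genes), which the feeder layer would carry, summed to 132 to 177 TPM at D6, 29.4 to 37.4 in IgE iGC, 25.3 to 35.0 in IgG1 iGC, 6.46 to 9.68 in IgE PC and 27.6 to 56.1 in IgG1 PC. Lum was listed at 0 in every IgE iGC and IgE PC library. T cell markers reached at most 0.77 TPM in any library and myeloid markers 4.01. In bulk RNA, fewer cells of a type and less RNA per cell cannot be told apart.

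Transcript levels of the 10 genes are compared per length, in TPM (the deposited length-corrected share of transcripts). At D6 Gapdh and Aldoa were the most abundant, at 1483 and 1080 TPM on average. Pkm, Ldha, Eno1 and Pgk1 lay between 315 and 493 TPM, while the transporter Slc2a1, Hk2, Pfkl and Pfkp lay between 27.1 and 61.2 TPM. The transcripts for the entry steps were thus the scarce ones in TPM. Summed over the 10 genes, the libraries held 4312 to 4371 TPM at D6, 2983 to 3053 in IgE iGC, 2885 to 3015 in IgG1 iGC, 1997 to 2288 in IgG1 PC and 1425 to 1542 in IgE PC. The summed ranges of the 2 iGC groups overlap, and those of IgG1 PC and IgE PC do not. TPM is a share of all transcripts, and in plasma cells immunoglobulin genes fill part of that share: they took 19.8% to 21.5% of counts in IgE PC, 15.3% to 21.7% in IgG1 PC and 1.39% to 1.62% elsewhere. Differences are therefore given below in CPM, counts relative to library size after TMM scaling, which centres most genes.

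**Figure D1:**
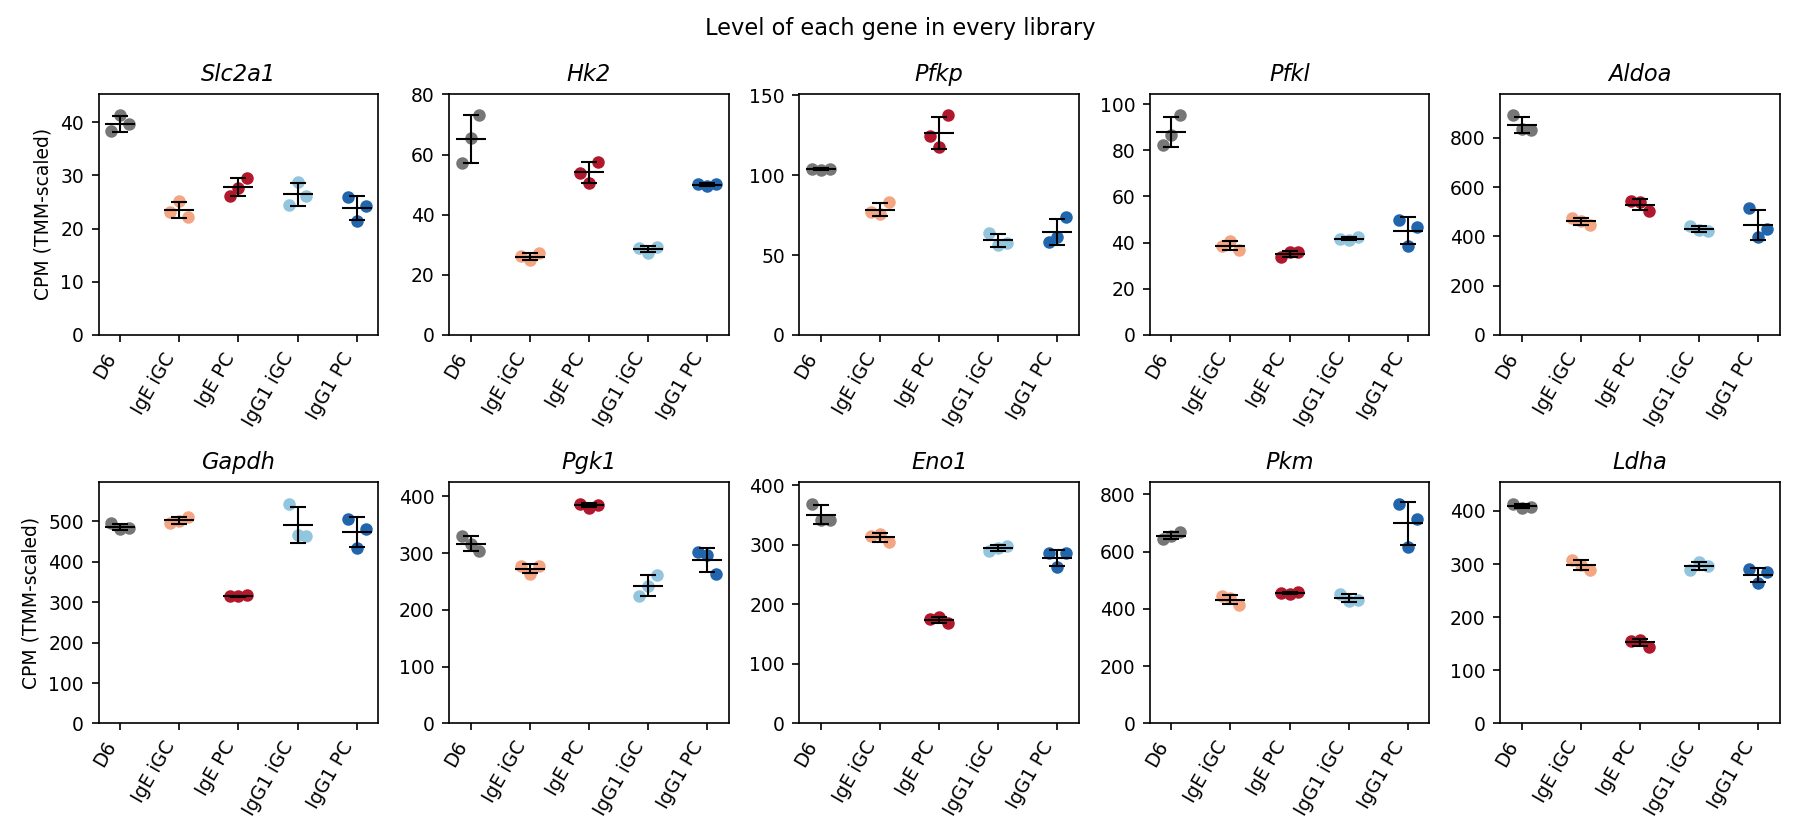
Level of each of the 10 genes (y axis, TMM-scaled CPM, from 0) in the 15 libraries by group (x axis); points are libraries, and the bar with whiskers is the mean ± SD of 3. Ldha, Eno1 and Gapdh sit lowest in IgE PC, Pfkp and Pgk1 sit highest there, and Pkm is high in D6 and IgG1 PC.

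Whether plasma cells of the 2 isotypes carry the same glycolytic transcripts was asked by comparing IgE PC with IgG1 PC. The 2 differed: Ldha, Eno1, Pkm, Gapdh and Pfkl were lower in IgE PC, by 1.28- to 1.83-fold, and Pfkp and Pgk1 were higher, by 1.96- and 1.34-fold. Slc2a1 and Aldoa were called higher too, by 1.16- and 1.18-fold, but their sign turned or their value fell to nearly 0 when libraries were scaled by total count (-0.03 and -0.0012 on the log2 scale). In all, 4 genes were called higher and 5 lower by edgeR's quasi-likelihood test (Benjamini-Hochberg adjusted p under 0.05 over all genes tested), and Hk2 was not called. Of all genes tested, 58.1% were called in this comparison, 27.4% higher and 30.7% lower, so calls were common in this comparison. The median log2 fold change was -0.12 over the 10 genes and -0.05 over all genes tested. Leaving immunoglobulin genes out of the scaling left all 9 calls in place. The higher fibroblast and B cell marker sums of IgG1 PC, given above, move with this comparison, and so do its higher cell cycle and lower plasma cell marker sums. The part of these markers in the result was not tested.

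At the iGC stage few genes were called between the isotypes. Between IgE iGC and IgG1 iGC 1 of the 10 genes was called, Pfkp, with 3.87% of all genes called (1.99% higher, 1.88% lower). The median log2 difference was 0.02 over the 10 genes and 0.01 over all genes tested. The plasma cell markers moved with this comparison: their sum was 606 to 679 TPM in IgE iGC and 318 to 328 in IgG1 iGC. Their part in the Pfkp difference was not tested.

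From iGC to PC, 5 genes rose and 3 fell in the IgE lineage, with 64.1% of all genes called (30.5% higher, 33.6% lower). In the IgG1 lineage 3 genes rose and none of the 10 fell, with 59.1% of all genes called (30.1% higher, 29% lower). Markers moved with these changes: the cell cycle sum was 1006 to 1072 TPM in IgE iGC and 450 to 476 in IgE PC, and 899 to 942 in IgG1 iGC and 646 to 897 in IgG1 PC. The fibroblast sum was 29.4 to 37.4 TPM in IgE iGC and 6.46 to 9.68 in IgE PC. The part of these markers in the changes was not tested. In IgG1 DESeq2 called 2 lower, Ldha (-0.10) and Eno1 (-0.10). These counts depend on the scaling: by total count 2 rose and 7 fell in IgE, and 2 rose and 5 fell in IgG1. The median of all genes moved from -0.08 to -0.55 in IgE and from 0.01 to -0.22 in IgG1. Under that scaling 23.3% of all calls in IgE were rises, against 47.6% under TMM, 32.0% against 50.9% in IgG1, and 23.8% against 47.2% between the plasma cells. The test of the difference between the lineages called 3 genes with a larger rise in IgE (Pfkp, Slc2a1, Pgk1) and 4 with a larger fall or smaller rise in IgE (Ldha, Eno1, Gapdh, Pkm). Of all genes, 42.9% were called in that test, 19.8% and 23.1% in the 2 directions. By total count the first number went to 0 and the second rose to 5, with 21.6% of all calls positive in place of 46.1% under TMM.

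**Figure D2:**
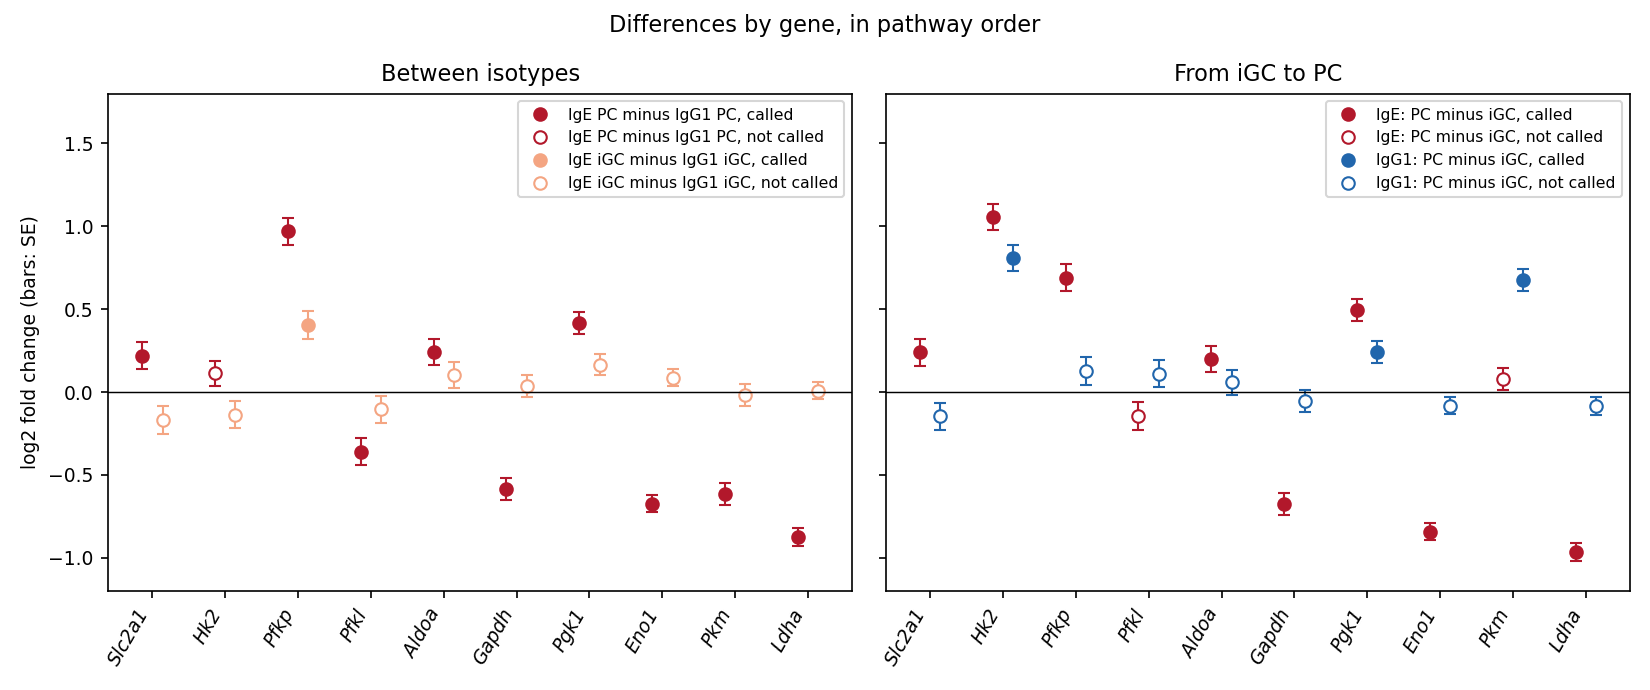
Log2 fold change with its SE (y axis) of the 10 genes in pathway order (x axis), between the isotypes (left) and from iGC to PC (right), under TMM scaling; filled points were called by edgeR, open points were not. In IgE, Gapdh, Eno1 and Ldha fall and Hk2, Pfkp and Pgk1 rise; by total count the small rises of Slc2a1 and Aldoa turn to -0.23 and -0.27, and Pgk1 drops to 0.03.

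The transporter comes first in the pathway, and under TMM scaling its level changed little between the day 8 groups. Slc2a1 (chr4:119108711-119137983, plus strand) is the main glucose carrier of most proliferating cells. Its level was 38.3, 41.3 and 39.7 CPM in the D6 libraries, 23.2, 25.2 and 22.1 in IgE iGC and 26.2, 27.6 and 29.6 in IgE PC. The IgG1 libraries had 24.4, 28.8 and 26.1 in IgG1 iGC and 26.0, 21.5 and 24.3 in IgG1 PC, in replicate order. D6 stood above all day 8 libraries, and the day 8 groups overlapped their neighbours in the order IgE PC, IgG1 iGC, IgG1 PC, IgE iGC, with no neighbouring pair called. From iGC to PC it rose in IgE under TMM (log2 fold change 0.24, SE 0.08, edgeR adjusted p = 0.0195) and had -0.15 in IgG1, which was not called. The IgE call was lost without IgE iGC replicate 1 or 3 or IgE PC replicate 3 (0.20 to 0.23). By total count the value turned to -0.23 in IgE and was -0.38 in IgG1, both called lower. On log2(TPM + 1) the values were -0.53 in IgE and -0.63 in IgG1, both called lower too. The difference between the lineages was 0.39 (edgeR adjusted p = 0.0146), and by total count 0.15, not called. Between the plasma cells (log2 fold change 0.22, SE 0.08, edgeR adjusted p = 0.033; -0.03 by total count) the call was lost without IgE PC replicate 2 or 3 or IgG1 PC replicate 2 or 3, and the value without 1 library ranged from 0.15 to 0.28.

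Hk2 (chr6:82725025-82774454, minus strand) encodes the inducible hexokinase that traps glucose as glucose 6-phosphate. It was measured at 57.2, 65.6 and 73.0 CPM at D6, 26.1, 24.9 and 27.2 in IgE iGC and 53.8, 50.7 and 57.7 in IgE PC. In IgG1 it stood at 29.0, 27.3 and 29.4 in IgG1 iGC and 50.2, 49.4 and 50.3 in IgG1 PC. Every plasma cell library lay above every iGC library, and D6 was highest and overlapped IgE PC. The rise from iGC to PC was 2.08-fold in IgE (log2 fold change 1.06, SE 0.08, edgeR adjusted p = 8.63e-09) and 1.75-fold in IgG1 (log2 fold change 0.81, SE 0.08, edgeR adjusted p = 4.00e-07), the largest rise of the 10 genes in each lineage. The IgE rise kept its call under all 9 alternatives and without any single library; on log2(TPM + 1) the IgG1 rise was 0.22 and not called. The lineages' rises were not called different (0.25, edgeR adjusted p = 0.0811), nor were IgE PC and IgG1 PC (log2 fold change 0.11, SE 0.08, edgeR adjusted p = 0.217; the value turned to -0.14 by total count and to -0.04 on log2(TPM + 1), not called in either). The difference between lineages was called under 4 of the 9 alternatives (0.24 to 0.30), among them DESeq2 (0.29, adjusted p of 0.0428). In TPM, Hk2 made up 25.5% ± 1.79 of the hexokinase transcripts (Hk1, Hk2 and Hk3) in IgE iGC and 30.7% ± 2.09 in IgG1 iGC (SD, n = 3). It made up 46.3% ± 1.19 in IgE PC and 45.4% ± 0.888 in IgG1 PC.

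Phosphofructokinase commits the sugar to glycolysis, and its platelet-type subunit Pfkp (chr13:6579768-6648777, minus strand) and liver-type subunit Pfkl (chr10:77986947-78010083, minus strand) moved apart in IgE PC. Pfkp stood at 104, 103 and 104 CPM at D6, 76.7, 75.5 and 83.5 in IgE iGC and 124, 118 and 137 in IgE PC. IgG1 cells had 63.7, 56.5 and 57.5 in IgG1 iGC and 58.5, 61.3 and 74.0 in IgG1 PC. IgE PC was above all other groups, and within each stage no IgE library overlapped an IgG1 library. Pfkp was 1.96-fold higher in IgE PC than in IgG1 PC (log2 fold change 0.97, SE 0.08, edgeR adjusted p = 1.34e-07). It was also the 1 gene of the 10 that differed at the iGC stage (log2 fold change 0.41, SE 0.08, edgeR adjusted p = 0.0113). That call was lost without IgE iGC replicate 3, IgG1 iGC replicate 2 or IgG1 iGC replicate 3 (edgeR adjusted p between 0.0559 and 0.0658; 0.36 to 0.39), and on log2(TPM + 1). From iGC to PC it rose in IgE (log2 fold change 0.69, SE 0.08, edgeR adjusted p = 2.38e-06) and not detectably in IgG1 (0.13; by total count -0.10), and the difference between the lineages was 0.56 (edgeR adjusted p = 0.00134). That difference was 0.32 and not called by total count, and the rise in IgE was 0.10 and not called on log2(TPM + 1).

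Pfkl ran at 82.2, 86.8 and 95.1 CPM at D6, 38.7, 40.6 and 36.7 in IgE iGC and 33.6, 35.7 and 35.8 in IgE PC. Its IgG1 values were 41.4, 41.2 and 42.4 in IgG1 iGC and 49.9, 38.5 and 46.8 in IgG1 PC. D6 was well above the rest, and the plasma cells of the isotypes did not overlap, with IgE PC lower (log2 fold change -0.36, SE 0.08, edgeR adjusted p = 0.0016). Under TMM neither lineage's change from iGC to PC was called (-0.14 in IgE and 0.11 in IgG1). By total count the IgE value was -0.61 and called, and the IgG1 value turned to -0.12, not called. On log2(TPM + 1) the values were -0.82 in IgE and -0.47 in IgG1, both called. The difference between the lineages was -0.25 and not called under TMM, and -0.49 and called by total count. Because both subunits were measured in the same library, their ratio does not depend on the scaling. In TPM, Pfkp made up 73.7% ± 1.36 of the phosphofructokinase transcripts (Pfkp, Pfkl and Pfkm) in IgE PC and 53.5% ± 4.95 in IgG1 PC (SD, n = 3). The share was 49.2% ± 1.93 at D6, 59.4% ± 1.80 in IgE iGC and 53.1% ± 2.77 in IgG1 iGC. The lowest IgE PC share, 72.4%, was above the highest of any other group, 61.1%. The difference between the plasma cells was 20.2 percentage points (exact permutation test, two-sided, p = 0.1, the smallest that 3 libraries against 3 can give; 0.133 after Benjamini-Hochberg adjustment over 20 such tests).

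**Figure D3:**
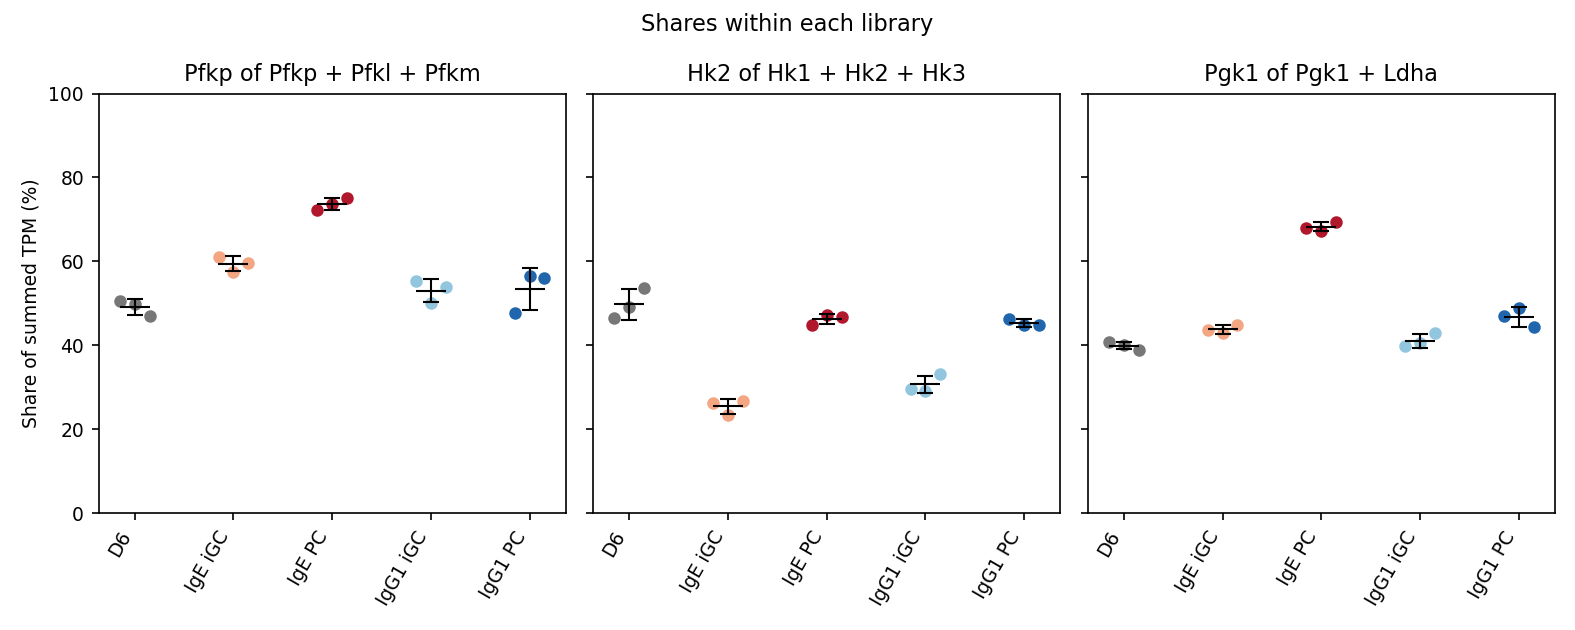
Share of summed TPM (y axis, 0 to 100%) taken by Pfkp among the phosphofructokinase genes, by Hk2 among the hexokinase genes and by Pgk1 within Pgk1 plus Ldha, in each library by group (x axis); points are libraries, bars are the mean ± SD of 3. The Pfkp share averages 73.7% and the Pgk1 share 68.3% in IgE PC, above every other group, while the Hk2 share is 46.3% in IgE PC and 45.4% in IgG1 PC.

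Aldoa (chr7:126795234-126800751, minus strand) encodes aldolase A, which splits fructose 1,6-bisphosphate into triose phosphates. Its libraries read 890.1, 834 and 831 CPM at D6, 475, 461 and 445 in IgE iGC and 543, 539.6 and 503 in IgE PC. The IgG1 libraries had 442, 424 and 421 in IgG1 iGC and 515, 396 and 429.7 in IgG1 PC. D6 was highest, and IgG1 PC spread so widely that it overlapped IgE PC and both iGC groups. The rise from iGC to PC in IgE (log2 fold change 0.20, SE 0.08, edgeR adjusted p = 0.0344) turned to -0.27 by total count, and the excess in IgE PC over IgG1 PC (log2 fold change 0.24, SE 0.08, edgeR adjusted p = 0.0141) was -0.0012 by total count and lost its call without IgG1 PC replicate 2 or 3 (0.17 and 0.22). Without IgE iGC replicate 2 or 3 or IgE PC replicate 1 or 2 the rise in IgE lost its call too, at 0.17 to 0.20. IgE iGC, IgG1 PC and IgG1 iGC followed in the order of levels, and no neighbours among these 3 were called. No difference between the lineages was called (0.14, turning to -0.09 by total count).

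Gapdh (chr6:125161715-125166467, minus strand), which makes NADH as it oxidises glyceraldehyde 3-phosphate and is widely used as a reference gene, was one of the 3 genes that fell in IgE PC. Its level was 495, 480.4 and 483 CPM at D6, 495, 500.1 and 511 in IgE iGC and 314, 314 and 316 in IgE PC. The values for IgG1 were 542, 465 and 463 in IgG1 iGC and 506, 434 and 479.5 in IgG1 PC. In the order IgE iGC, IgG1 iGC, D6 and IgG1 PC each group overlapped the next, and no neighbouring pair was called. IgE PC lay below all of them: 1.59-fold below IgE iGC (log2 fold change -0.67, SE 0.07, edgeR adjusted p = 2.51e-07) and below IgG1 PC as well (log2 fold change -0.59, SE 0.07, edgeR adjusted p = 2.49e-06). The change in IgG1 was -0.05 and not called (-0.29 by total count and -0.52 on log2(TPM + 1), both called), and the lineages differed by -0.62 (edgeR adjusted p = 9.89e-05). In TPM, Gapdh averaged 1298 in IgE iGC and 495 in IgE PC, against 1286 and 897 in IgG1.

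The next enzyme, encoded by Pgk1 (chrX:106187100-106203699, plus strand), makes the first ATP of the pathway, and its transcript was higher in IgE PC than in IgG1 PC. It was counted at 330.4, 317 and 304 CPM at D6, 278, 263 and 277 in IgE iGC and 387, 380.0 and 386 in IgE PC. The IgG1 libraries had 225, 243 and 262 in IgG1 iGC and 302, 297 and 264 in IgG1 PC. All IgE PC libraries were above all others, and D6, IgG1 PC, IgE iGC and IgG1 iGC followed with no neighbouring pair called. Pgk1 was 1.34-fold higher in IgE PC than in IgG1 PC (log2 fold change 0.42, SE 0.07, edgeR adjusted p = 5.91e-05), and this held by total count and on log2(TPM + 1). Its rise from iGC in IgE (log2 fold change 0.50, SE 0.07, edgeR adjusted p = 6.41e-06) shrank to 0.03 by total count and turned to -0.24 on log2(TPM + 1). The IgG1 rise (log2 fold change 0.24, SE 0.07, edgeR adjusted p = 0.00487) shrank to 0.0068 and turned to -0.36 in the same way. The lineages' changes differed by 0.25 (edgeR adjusted p = 0.038), a call lost in 9 of 15 fits without 1 library, by total count (0.02), on log2(TPM + 1) (0.12), with no filter, with only the groups compared, with a replicate block and when reads of near-identical gene copies were added (0.21). Those 9 libraries are the 3 of IgE iGC, D6 replicate 2, IgE PC replicates 1 and 2, IgG1 iGC replicates 2 and 3, and IgG1 PC replicate 3 (0.19 to 0.27). The Pgk1 copy Pgk1-rs7 was credited with 810 counts in IgG1 PC replicate 1.

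Eno1 (chr4:150236721-150248879, plus strand), the enolase of most cells, forms phosphoenolpyruvate. The libraries gave 369, 342 and 342 CPM at D6, 315, 318 and 304 in IgE iGC and 176, 178 and 169 in IgE PC. IgG1 cells gave 289, 295 and 299 in IgG1 iGC and 286, 262 and 286 in IgG1 PC. IgE PC was far below every other library, and IgE iGC, IgG1 iGC and IgG1 PC, in this order below D6, had no neighbouring pair called. The gene fell 1.79-fold from iGC to PC in IgE (log2 fold change -0.84, SE 0.05, edgeR adjusted p = 9.79e-10), and had -0.08 in IgG1 (edgeR adjusted p = 0.19). By total count the IgG1 value was -0.32 and on log2(TPM + 1) -0.68, both called. The lineages differed by -0.76 (edgeR adjusted p = 1.69e-06). It was 1.60-fold lower in IgE PC than in IgG1 PC (log2 fold change -0.67, SE 0.05, edgeR adjusted p = 4.81e-08).

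Pkm (chr9:59656368-59679375, plus strand) encodes the pyruvate kinase of muscle and proliferating cells, and the gene-level values do not separate its M1 and M2 splice forms. It stood at 644, 656 and 667 CPM at D6, 444, 438 and 415 in IgE iGC and 455, 451 and 461 in IgE PC. In IgG1 it reached 454, 427 and 433 in IgG1 iGC and 767, 617 and 713 in IgG1 PC. D6 and IgG1 PC formed the upper set and overlapped, and the other 3 groups lay close together below them. Pkm rose 1.60-fold from iGC to PC in IgG1 (log2 fold change 0.68, SE 0.07, edgeR adjusted p = 5.39e-07) and had 0.08 in IgE, not called and turning to -0.39 by total count. The lineages differed by -0.60 (edgeR adjusted p = 1.39e-04), and IgE PC was 1.53-fold below IgG1 PC (log2 fold change -0.62, SE 0.07, edgeR adjusted p = 1.53e-06). Under TMM the change called in Pkm was thus the rise in IgG1, and the changes called in Ldha, Eno1 and Gapdh were the falls in IgE. This split depends on the scaling: by total count Pkm fell in IgE (the -0.39 was called), and Ldha, Eno1 and Gapdh fell in IgG1 too. On log2(TPM + 1) the IgG1 rise of Pkm was 0.06 and not called.

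Ldha (chr7:46841475-46855627, plus strand), the lactate dehydrogenase subunit typical of glycolytic cells, showed the largest fall. It was found at 413, 406 and 408 CPM at D6, 308, 298 and 289 in IgE iGC and 155, 158 and 145 in IgE PC. Its counts in IgG1 cells were 289, 304 and 297 in IgG1 iGC and 291, 265 and 284 in IgG1 PC. The 2 iGC groups and IgG1 PC lay together, with D6 above and IgE PC below, and IgE PC overlapped no other group. The fall from iGC to PC was 1.95-fold in IgE (log2 fold change -0.97, SE 0.05, edgeR adjusted p = 2.06e-10), against -0.09 in IgG1 (edgeR adjusted p = 0.175), a difference of -0.88 (edgeR adjusted p = 4.69e-07). By total count the IgG1 value was -0.32 (edgeR adjusted p = 2.21e-04) and on log2(TPM + 1) -0.69 (limma adjusted p = 1.14e-06), both called. Between the plasma cells Ldha was 1.83-fold lower in IgE (log2 fold change -0.87, SE 0.05, edgeR adjusted p = 3.88e-09). The falls of Ldha, Eno1 and Gapdh in IgE, and their lower level in IgE PC than in IgG1 PC, kept their direction and call under all 9 alternatives and without any single library.

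The level of Pgk1 relative to Ldha can be read within each library, where no scaling enters; such a ratio shows unequal change and not the direction of either gene. In TPM both averaged less in IgE PC than in IgE iGC, Pgk1 with 206 against 244 and Ldha with 96.0 against 313. Pgk1 made up 68.3% ± 1.12 of the Pgk1 and Ldha TPM in IgE PC and 46.8% ± 2.32 in IgG1 PC (SD, n = 3). It made up 40.0% ± 0.907 at D6, 43.8% ± 0.992 in IgE iGC and 41.1% ± 1.67 in IgG1 iGC. The lowest IgE PC library (67.3%) was above the highest of the other 12 (48.9%). The difference between the plasma cells was 21.5 percentage points, and that between IgE PC and IgE iGC 24.5 points (each p = 0.1 by the two-sided exact permutation test, the smallest possible; 0.133 adjusted). These shares were chosen after the values of the genes had been seen.

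Compared with day 6, most of the genes were lower on day 8. In IgE iGC 9 of 10 were called lower than D6 and none higher, with 69.1% of all genes called (32.8% higher, 36.3% lower). In IgG1 iGC it was 9 lower and none higher (68.4% of all genes, 32.4% higher and 36% lower). In IgE PC 8 were lower and 2 higher (76.4% of all genes, 36.9% higher and 39.5% lower). In IgG1 PC 7 were lower and none higher (71.9% of all genes, 35.9% higher and 36% lower). By total count and by limma on log2(TPM + 1) all 10 were called lower in both plasma cell groups. These 4 comparisons share the D6 libraries. The median log2 fold change of the 10 genes was -0.53, -0.59, -0.58 and -0.47 in that order, against -0.04, -0.04, -0.04 and 0.01 over all genes tested. The largest falls were those of Ldha (log2 fold change -1.42, SE 0.05, edgeR adjusted p = 1.77e-12) and Pfkl (log2 fold change -1.33, SE 0.08, edgeR adjusted p = 6.24e-10) in IgE PC, and of Hk2 in IgE iGC (log2 fold change -1.33, SE 0.08, edgeR adjusted p = 8.50e-10) and IgG1 iGC (log2 fold change -1.19, SE 0.08, edgeR adjusted p = 2.77e-09). Under TMM Gapdh had no called difference from D6 in IgE iGC, IgG1 iGC and IgG1 PC (0.05, 0.01 and -0.04, in this order). By total count these were -0.02, -0.04 and -0.32, and the last was called lower (edgeR adjusted p = 1.90e-04). On log2(TPM + 1) they were -0.19, -0.21 and -0.73, all called lower. Higher than D6 in IgE PC were Pfkp (log2 fold change 0.29, SE 0.08, edgeR adjusted p = 0.00512) and Pgk1 (log2 fold change 0.28, SE 0.07, edgeR adjusted p = 0.00117), which turned to -0.25 and -0.26 by total count. Eno1 in IgE iGC (log2 fold change -0.17, SE 0.05, edgeR adjusted p = 0.0101) lost its call without D6 replicate 1, IgE iGC replicate 3 or IgE PC replicate 3 (-0.14 to -0.12). The D6 sample was unsorted, and its fibroblast marker sum was above that of all sorted groups, as given above. Its B cell marker sum (3752 to 4019 TPM) lay below that of the iGC groups and above that of the plasma cells, and its cell cycle sum (794 to 814) lay below that of the iGC groups. The part of these markers in the differences was not tested.

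The rest of the pathway was followed in 8 further gene lists, of which 96 genes were tested. Of 10 tested glycolysis enzymes outside the 10 genes, 6 were lower and none higher in IgE PC than in IgG1 PC, 7 fell and 1 rose from iGC to PC in IgE, and 2 fell and 5 rose in IgG1. Their medians were -0.48, -0.38 and 0.07 on the log2 scale, against -0.05, -0.08 and 0.01 over all genes tested. Of all genes, 58.1%, 64.1% and 59.1% were called in these 3 comparisons. Ldhb, Eno2 and Eno3, which are among the 6 lower in IgE PC and the 7 that fell in IgE, were scarce. They averaged at most 7.02 CPM in any day 8 group. Ldhb, also among the 5 that rose in IgG1, averaged at most 0.43 CPM in these groups. By total count the IgG1 median turned to -0.16, with 4 falls and 2 rises. Tpi1 and Pgam1, the enzymes at the triose and phosphoglycerate steps, are among those that fell in IgE and, under TMM, rose in IgG1. The IgG1 rises were 0.32 for Tpi1 and 0.18 for Pgam1; by total count they were 0.09 and -0.06, neither called. Aldoc, a second aldolase, fell in IgE from 26.7 ± 1.44 to 9.59 ± 1.34 CPM (log2 fold change -1.48, SE 0.08, edgeR adjusted p = 2.57e-10). In IgG1 it fell less, from 27.4 ± 0.646 to 18.3 ± 0.569 (log2 fold change -0.58, SE 0.08, edgeR adjusted p = 1.30e-05). Bpgm, which makes 2,3-bisphosphoglycerate, rose in both lineages (log2 fold change 1.21, SE 0.10, edgeR adjusted p = 2.67e-08 in IgE and log2 fold change 1.38, SE 0.10, edgeR adjusted p = 1.29e-08 in IgG1).

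Of 9 glucose and lactate transport genes, 4 were lower and none higher in IgE PC than in IgG1 PC (median -0.24), and from iGC to PC 5 fell and 2 rose in IgE and 4 fell and 2 rose in IgG1. These counts stand beside 58.1%, 64.1% and 59.1% of all genes called. By total count 6 were lower and none higher between the plasma cells (median -0.48), 6 fell and 1 rose in IgE, and 6 fell and 2 rose in IgG1. Of the 4 lower in IgE PC under TMM, Slc2a4, Slc16a3 and Slc2a9 averaged at most 4.92 CPM in either plasma cell group. Slc2a3, a high-affinity glucose transporter, fell from 46.6 ± 1.15 to 15.4 ± 0.487 CPM in IgE (log2 fold change -1.59, SE 0.08, edgeR adjusted p = 1.13e-10). It fell from 46.0 ± 2.96 to 23.9 ± 3.13 in IgG1 (log2 fold change -0.94, SE 0.08, edgeR adjusted p = 1.01e-07). Bsg, the chaperone of the lactate carriers, rose in both (log2 fold change 1.13, SE 0.11, edgeR adjusted p = 3.44e-07 in IgE and log2 fold change 1.40, SE 0.11, edgeR adjusted p = 6.84e-08 in IgG1). The lactate carrier genes of the list did not rise with it. Slc16a1 was called lower in both (-0.25 in IgE and -0.22 in IgG1). The scarce Slc16a3 fell in IgE (-1.87) and was not called in IgG1 (-0.40), and Slc16a7 was called in neither. Slc2a1, with its small changes under TMM, thus sat beside a larger fall of Slc2a3.

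Of 14 regulators, 5 were higher and 5 lower in IgE PC than in IgG1 PC, and in IgE 4 rose and 5 fell from iGC to PC (median -0.24). Those 10 and 9 of 14 stand beside 58.1% and 64.1% of all genes called. In IgG1 3 rose and 6 fell, beside 59.1% of all genes called. By total count the numbers between the plasma cells were 1 higher and 7 lower, in IgE 1 rose and 11 fell, and in IgG1 2 rose and 9 fell. Pfkfb3 and Pfkfb4, which make the phosphofructokinase activator fructose 2,6-bisphosphate, fell in both lineages, and more in IgE. In IgE Pfkfb3 went from 50.4 ± 0.268 to 17.7 ± 0.644 CPM (log2 fold change -1.51, SE 0.10, edgeR adjusted p = 1.27e-09). Pfkfb4 went there from 13.1 ± 0.0339 to 4.05 ± 0.161 (log2 fold change -1.69, SE 0.10, edgeR adjusted p = 3.19e-10). In IgG1 the falls were -0.89 for Pfkfb3 (edgeR adjusted p = 8.58e-07) and -0.90 for Pfkfb4 (edgeR adjusted p = 5.50e-07). The lineages differed by -0.62 for Pfkfb3 (edgeR adjusted p = 0.00158) and -0.79 for Pfkfb4 (edgeR adjusted p = 1.99e-04). Myc fell in IgE from 104 ± 10.6 to 46.4 ± 1.48 CPM (log2 fold change -1.17, SE 0.09, edgeR adjusted p = 6.83e-09). In IgG1 it fell from 113 ± 12.4 to 76.0 ± 1.09 (log2 fold change -0.57, SE 0.08, edgeR adjusted p = 3.21e-05). The test of the difference gave log2 fold change -0.60, SE 0.12, edgeR adjusted p = 9.48e-04.

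Of 17 HIF targets outside glycolysis, 9 were higher and 5 lower in IgE PC than in IgG1 PC (median 0.26, and 0.01 by total count, with 6 and 6). Under TMM 58.1% of all genes were called in this comparison, 27.4% higher and 30.7% lower. The 17 targets did not move as a block. Vegfa, an angiogenic factor, rose from 16.2 ± 1.37 to 548 ± 63.2 CPM in IgE (log2 fold change 5.08, SE 0.12, edgeR adjusted p = 2.06e-14). It rose from 18.3 ± 0.317 to 193 ± 21.0 in IgG1 (log2 fold change 3.40, SE 0.11, edgeR adjusted p = 8.24e-13). Ero1l, an oxidase of the endoplasmic reticulum, rose from 69.0 ± 1.84 to 489.7 ± 43.2 in IgE (log2 fold change 2.83, SE 0.08, edgeR adjusted p = 1.67e-13). It was called higher in IgG1 too, and the lineages differed by 1.93 (edgeR adjusted p = 1.75e-08). Adm, a secreted peptide, was lower in IgE iGC than in IgG1 iGC (log2 fold change -1.22, SE 0.11, edgeR adjusted p = 2.22e-05). Mxi1, a Myc antagonist, rose in IgE (log2 fold change 1.33, SE 0.09, edgeR adjusted p = 2.18e-09). A smaller rise of Mxi1 was called in IgG1, and the difference between the lineages was called. Ndrg1 differed between the lineages with a wide error (log2 fold change -1.72, SE 0.33, edgeR adjusted p = 8.56e-04).

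Where pyruvate enters the mitochondria, 5 of 13 genes of the pyruvate dehydrogenase list were higher and 2 lower in IgE PC than in IgG1 PC (median 0.17, which turned to -0.07 by total count, with 2 and 6). Under TMM 58.1% of all genes were called in this comparison, 27.4% higher and 30.7% lower. Pdk2, a kinase that inhibits the complex, rose in IgE from 3.30 ± 0.159 to 12.7 ± 0.462 CPM (log2 fold change 1.95, SE 0.13, edgeR adjusted p = 2.27e-09). In IgG1 it rose from 3.75 ± 0.447 to 8.60 ± 1.62 (log2 fold change 1.19, SE 0.13, edgeR adjusted p = 1.26e-06). The lineages differed by 0.76 (edgeR adjusted p = 0.0033). Mpc2, a subunit of the pyruvate carrier, rose in both lineages (log2 fold change 1.53, SE 0.11, edgeR adjusted p = 5.47e-09 in IgE and log2 fold change 1.26, SE 0.11, edgeR adjusted p = 1.13e-07 in IgG1). Mpc1, the other carrier subunit in the list, fell in both (log2 fold change -0.53, SE 0.06, edgeR adjusted p = 1.77e-06 in IgE and log2 fold change -0.41, SE 0.06, edgeR adjusted p = 4.68e-05 in IgG1). Of 7 pentose phosphate genes, 2 were higher and 2 lower between the plasma cells, and 4 rose and 2 fell in each lineage from iGC to PC (medians 0.04, 0.38 in IgE and 0.25 in IgG1), beside 58.1%, 64.1% and 59.1% of all genes called. By total count 1 was higher and 4 lower between the plasma cells, 1 rose and 3 fell in IgE, and 2 rose and 3 fell in IgG1.

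Of 14 genes that turn sugar phosphates into hexosamines and nucleotide sugars, the donors for protein glycosylation, 8 were higher and 4 lower in IgE PC than in IgG1 PC (median 0.50), and 10 rose and 3 fell in IgE, against 8 and 3 in IgG1. By total count 7 were higher and 6 lower between the plasma cells (median 0.25). The IgE numbers were then 6 and 6, and the IgE median of 0.45 became -0.01, while the IgG1 numbers were 7 and 4. The shares of all genes called under TMM in these 3 comparisons were 58.1%, 64.1% and 59.1%. Gfpt1, the first enzyme of the hexosamine branch, rose from 47.6 ± 1.00 to 428 ± 21.1 CPM in IgE (log2 fold change 3.16, SE 0.06, edgeR adjusted p = 3.28e-15). It rose from 52.1 ± 1.29 to 180.1 ± 8.94 in IgG1 (log2 fold change 1.79, SE 0.06, edgeR adjusted p = 6.92e-13). The lineages differed by 1.38 (edgeR adjusted p = 1.61e-08). Gnpnat1, a later enzyme of that branch, was higher in IgE PC than in IgG1 PC (log2 fold change 1.48, SE 0.08, edgeR adjusted p = 1.67e-09). Gmppa and Gmppb, which form GDP-mannose pyrophosphorylase, rose in both lineages. Gmppb rose by 2.63 in IgE and 1.84 in IgG1, and Gmppa by 2.78 and 2.19 on the log2 scale. Gnpda1, which returns hexosamine to glycolysis, fell in IgE (log2 fold change -1.30, SE 0.06, edgeR adjusted p = 1.05e-11). It was called lower in IgG1 too, and its fall was called larger in IgE.

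Of 12 tested genes of the serine and glycerol branches and of glycolysis reversal, 6 were higher and 4 lower in IgE PC than in IgG1 PC (median 0.27, and 0.02 by total count, with 3 and 4). Under TMM 58.1% of all genes were called in this comparison, 27.4% higher and 30.7% lower. Pck2, the mitochondrial PEP carboxykinase, rose in IgE from 80.5 ± 3.20 to 337 ± 19.7 CPM (log2 fold change 2.07, SE 0.09, edgeR adjusted p = 1.31e-11). In IgG1 it rose from 62.0 ± 6.13 to 153 ± 19.4 (log2 fold change 1.30, SE 0.09, edgeR adjusted p = 7.00e-09). Phgdh, the first enzyme of serine synthesis, and Shmt2, the mitochondrial serine hydroxymethyltransferase, rose in IgE (log2 fold change 1.63, SE 0.09, edgeR adjusted p = 1.18e-10 for Phgdh, and log2 fold change 1.00, SE 0.08, edgeR adjusted p = 2.52e-08 for Shmt2). Both were called higher in IgG1 too, and the difference between the lineages was called for Phgdh and not for Shmt2. The cytosolic Shmt1 fell in IgE from 27.8 ± 1.39 to 5.77 ± 0.507 CPM (log2 fold change -2.27, SE 0.09, edgeR adjusted p = 7.65e-12), and was not called in IgG1. Gpd2, the mitochondrial glycerol 3-phosphate dehydrogenase, fell in IgE as well (log2 fold change -1.28, SE 0.12, edgeR adjusted p = 9.38e-08). It was called lower in IgG1 too, and its fall was called larger in IgE.

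**Figure D4:**
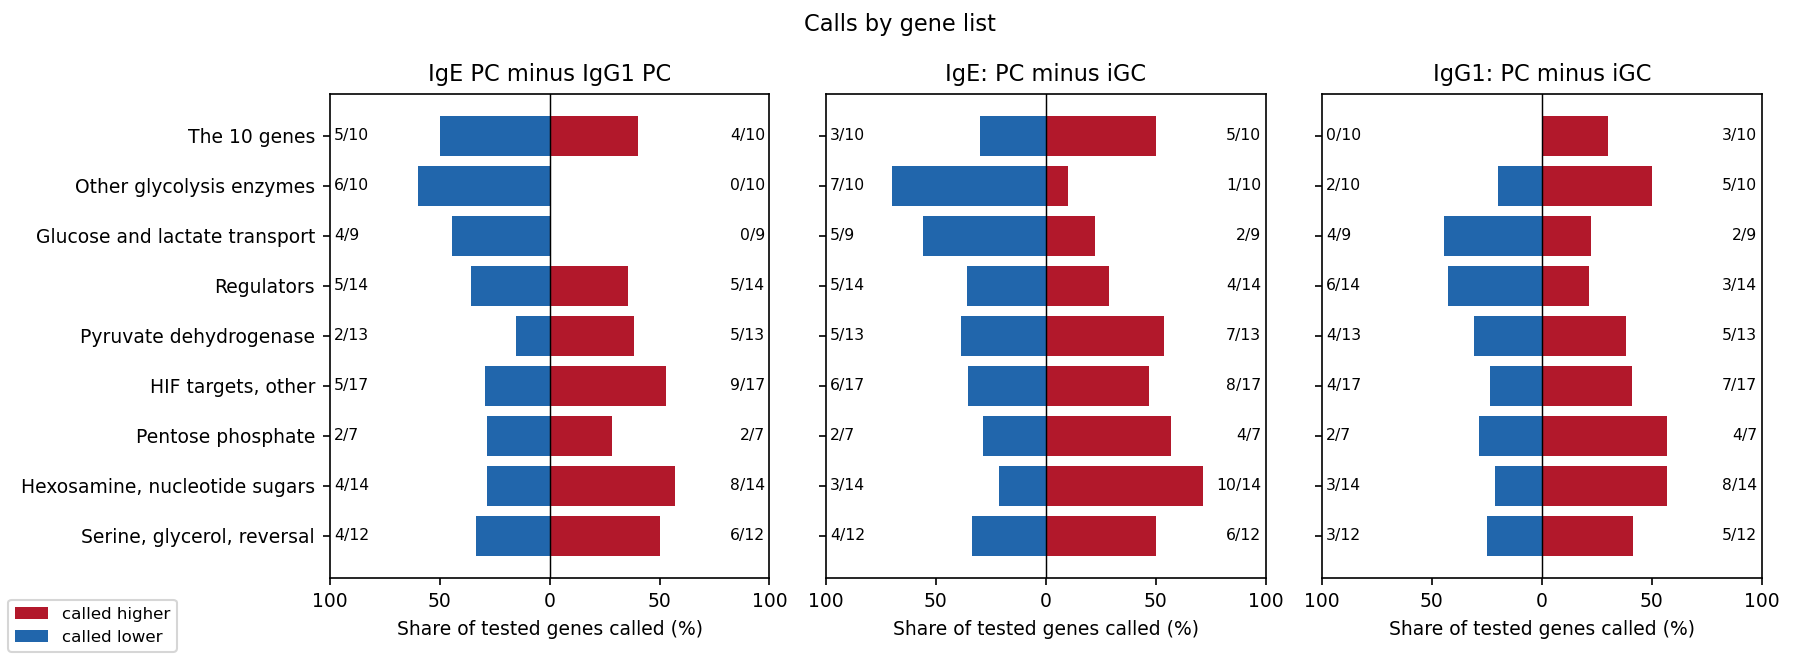
Share of the tested genes of each list called higher (right of 0) or lower (left of 0) by edgeR under TMM scaling (x axis, percent) in IgE PC against IgG1 PC and from iGC to PC in each isotype; the counts stand at the edges. Other glycolysis enzymes have 6 of 10 lower in IgE PC and 5 of 10 risen in IgG1 PC, and by total count all 10 are lower in IgE PC. Of those 6, Ldhb, Eno2 and Eno3 averaged at most 5.49 CPM in either plasma cell group.

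Across the 15 libraries the 10 genes did not follow a single pattern. Pearson's r of log2 CPM, given as a description over libraries that fall into 5 groups, was 0.98 between Ldha and Eno1, 0.93 between Gapdh and Eno1, 0.91 between Slc2a1 and Aldoa and 0.84 between Pfkp and Pgk1, and -0.81 between Gapdh and Pgk1. Among 8927 genes that reached 10 CPM, those with the pattern most like the mean of the 10 genes were Nqo1 (r of 0.99), Phldb2 (0.99), Plin2 (0.99), Me1 (0.99) and Tnfrsf12a (0.99). The genes most like single members were Nhp2 for Ldha (0.99), Jup for Pfkl (0.99), Dag1 for Hk2 (0.98), St3gal1 for Pfkp (0.97), Kcnab2 for Pgk1 (0.96) and Trove2 for Slc2a1 (0.96). All these correlations share the depth and scaling of the same libraries. They include the unsorted D6 libraries, whose fibroblast marker sum (132 to 177 TPM) was above that of all sorted groups. The part of these markers in the correlations was not tested.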

How the data were processed

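PolyA RNA was sequenced as 76 bp single-end, strand-specific reads, per the labels' protocols. The submitters' processing notes name cutadapt 1.9.1, STAR 2.5.2a, RSEM 1.3.0, DESeq2 1.12.3 and the build GRCm38; the annotation release is not given in the sources used here. The authors deposited RSEM expected counts (ambiguous reads are split between genes) and RSEM TPM, per the file headers. Counts of Slc2a1, Hk2, Pfkp and Pfkl were whole in every library, and those of the other 6 genes were fractional in some. Positions are from GENCODE vM21 (GRCm38) and promoters from RefSeq; symbols matched 51633 of 51912 identifiers.

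Rounded expected counts were filtered (filterByExpr, minimum count 10, minimum total 15; 15692 genes) and TMM-scaled. All 15 libraries entered 1 edgeR 4.0.16 fit in R 4.3.3, with a mean for each group (glmQLFit robust, glmQLFTest, 10 residual degrees of freedom), and Benjamini-Hochberg adjusted p under 0.05 were called. SE is |log2 fold change| / √F. The fits were tested on simulated data. The alternatives were DESeq2 1.42.0, its size factors, total-count scaling, immunoglobulin genes left out of TMM, no filter, only the groups compared, a replicate block, limma 3.58.1 on log2(TPM + 1), near copies summed, and each library left out. Shares were compared by exact permutation tests (scipy 1.17.1). IgE PC against IgG1 iGC and IgG1 PC against IgE iGC serve only to order levels.

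The 10 genes, the lists, the rules and the alternatives were chosen with earlier results of these data known. Other list genes are named where called in 1 of the first 5 contrasts with a log2 change of at least 1 in size and at least 10 CPM, on average, in a compared group, at most 3 rises and 3 falls per list and contrast. Tpi1, Pgam1, Mpc1, Slc16a1, Slc16a3, Slc16a7 and further values of named genes were chosen after values were seen. The labels do not say whether the biological replicates are separate mice, so p-values measure the spread between these samples.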

Additional observations from a re-analysis of the deposited data

Results flagged for a closer look

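For 7 of the 10 genes IgE and IgG1 cells differed in their change from iGC to PC, by the interaction test of edgeR (adjusted p under 0.05 over all genes). The differences, IgE minus IgG1 on the log2 scale, were -0.88 for Ldha, -0.76 for Eno1, -0.62 for Gapdh and -0.60 for Pkm, and 0.56 for Pfkp, 0.39 for Slc2a1 and 0.25 for Pgk1. Of all genes tested, 42.9% were called in the same test. The 4 negative differences were called under every alternative and without any single library, whereas the 3 positive ones were not called under total-count scaling, and their errors and further limits stand with each gene above.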

How the results depend on the processing

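With total-count scaling 61 of 90 results for the 10 genes over 9 contrasts kept their direction and side of the threshold, and with limma on log2(TPM + 1) 59; with the other 7 alternatives it was 83 to 89, and 1301 of 1350 when 1 library was left out. Total-count scaling moved the median of all genes to -0.30 between the plasma cells, -0.55 and -0.22 from iGC to PC in IgE and IgG1, -0.30 in the interaction, and -0.57 and -0.27 in IgE PC and IgG1 PC against D6, and limma on TPM moved it to -0.49 and -0.42, and -0.59 and -0.47, in the stage and D6 contrasts; without the filter it was -0.15 in IgE PC against D6. Between the plasma cells 2 genes were called higher, in place of 4, by total count, by limma on TPM and with only the groups compared. From iGC to PC in IgE the counts were 2 higher and 7 lower by total count and 1 and 8 by limma on TPM, in place of 5 and 3; in IgG1 they were 5 lower by total count, 2 lower by DESeq2, and 0 higher and 8 lower by limma on TPM, in place of 3 and 0. In the interaction 0 (total count) or 1 (limma on TPM) in place of 3 were higher, and in IgE PC against D6 0 under both in place of 2; in IgG1 PC against D6 10 were lower under both in place of 7. Between the iGC groups limma on TPM called 0 in place of 1, and in IgE iGC against D6 only the groups compared gave 1 higher (Gapdh, 0.10) in place of 0. Apart from the scaling itself, the cause of these changes was not tested.

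Values that turned sign by total count were, between the plasma cells, Slc2a1 -0.033, Hk2 -0.14 and Aldoa -0.0012; between the iGC groups Ldha -0.0076; from iGC to PC, Slc2a1 -0.23, Aldoa -0.27 and Pkm -0.39 in IgE and Pfkp -0.10, Pfkl -0.12 and Aldoa -0.18 in IgG1; in the interaction Aldoa -0.088; and against D6, Gapdh -0.016 in IgE iGC and -0.037 in IgG1 iGC, Pfkp -0.25 and Pgk1 -0.26 in IgE PC and Pkm -0.19 in IgG1 PC. By limma on TPM they were, in the same order, Slc2a1 -0.080 and Hk2 -0.044; Ldha -0.011; Slc2a1 -0.53, Aldoa -0.55, Pgk1 -0.24 and Pkm -0.67; Pfkp -0.41, Pfkl -0.47, Aldoa -0.54 and Pgk1 -0.36; Aldoa -0.012; Gapdh -0.19 and -0.21; Pfkp -0.53 and Pgk1 -0.61; and Pkm -0.66. With only the groups compared Ldha between the iGC groups was -0.00018, with DESeq2 and with its size factors Gapdh in IgG1 iGC against D6 was -0.0069, and with immunoglobulin genes left out Gapdh in IgG1 PC against D6 was 0.013. For 7 results that were not called, the sign turned without 1 library: between the iGC groups Ldha ranged from -0.017 to 0.029, Pkm from -0.039 to 0.012 and Gapdh from -0.0045 to 0.11; from iGC to PC in IgG1 Gapdh from -0.10 to 0.023 and Aldoa from -0.057 to 0.12; and against D6 Gapdh from -0.057 to 0.072 in IgG1 iGC and from -0.082 to 0.033 in IgG1 PC.

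Without 1 library the number of the 10 genes called was 2 to 4 higher and 5 lower between the plasma cells, 0 to 1 higher between the iGC groups, 3 to 5 higher and 3 to 4 lower in IgE and 3 to 4 higher and 0 to 1 lower in IgG1 from iGC to PC, 2 to 4 higher and 4 to 5 lower in the interaction, and against D6 8 to 9 lower in IgE iGC and 0 to 1 higher and 7 to 8 lower in IgG1 PC. Calls were gained without IgG1 PC replicate 1 (Slc2a1 in IgG1, -0.21; Aldoa in the interaction, 0.26; Pgk1 in IgG1 PC against D6, -0.17), without IgG1 PC replicate 2 (Pfkl in IgE, -0.16, in IgG1, 0.20, and in the interaction, -0.36; Pkm in IgG1 PC against D6, 0.19) and without D6 replicate 1 or 3 (Hk2 in the interaction, 0.25). All genes called between the iGC groups numbered 607, against 937 by DESeq2, 1503 with only the groups compared, 323 to 403 without an iGC library and 1219 without IgG1 PC replicate 1; in the interaction they numbered 6733, against 4345 by limma on TPM. The labels do not say whether same-numbered libraries share a source. Correlations of their deviations from the group means averaged -0.00091 over all pairs, but had both signs. Between iGC and PC they were 0.064, 0.095 and 0.127 in IgE and -0.059, -0.23 and -0.052 in IgG1, in replicate order. Such an average cannot settle whether the libraries are paired. A replicate block left 89 of 90 results on their side, the exception being Pgk1 in the interaction (0.25, edgeR adjusted p = 0.0544). The smallest library, 17.7 M counts, limits no member, since each was at least 21.5 CPM in every library.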
